A study of Mus musculus with 5 samples.

Results

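U1 is the small nuclear RNA that recognises the start of introns. The mouse genome holds many U1 genes, and their RNAs fall into closely related sequence variants named U1a and U1b. Members were the names that begin with snRNA_U1 followed by a letter or by nothing, and 3 of the 1042 names listed over the 5 libraries met this rule, namely U1a1, U1b1 and U1b6. No name without a variant letter was listed. Both U1a1 and U1b6 were listed in every library, among 446 to 874 names, while U1b1 was listed in the spermatogonia libraries only.

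The libraries came from medium-length RNA sequencing (melRNA-seq), in which adaptors are ligated to both ends of intact RNA and inserts are selected by size. The study takes a read that reaches the 3' adaptor to cover 1 whole RNA. Its methods give inserts of 115 to 255 nt for the testis libraries, and a gel selection without a range for spermatogonia. All mice were C57BL/6J at postnatal day 7, with no other genotype named, and the number of animals behind a library is not given in the sources used here. Whole testis RNA, 600 ng per library, gave 3 libraries, the first without enzyme. The second followed an enzyme that the study names tobacco alkaline phosphatase (TAP, 25 U, 1.5 h). The third followed 5' polyphosphatase (5Pase, 20 U, 0.5 h). Spermatogonia, the male germline cells that divide by mitosis, were sorted for the surface protein EpCAM, and their RNA gave 2 libraries (the study's biological replicates) after treatment with 25 U of RppH for 1 h, on 500 ng of RNA by the study's methods. An adaptor joins only to a 5' monophosphate. TAP opens 5' caps and triphosphates, 5Pase acts on triphosphates and not on caps, and RppH is a pyrophosphohydrolase that also leaves a monophosphate. No protein-coding gene was measured, so the labelled tissue and cell type could not be checked against marker genes.

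U1 RNA is made by RNA polymerase II, receives a cap that is later trimethylated, and is packed with the U1-70K, U1-A and U1-C proteins and a ring of Sm proteins into the U1 snRNP. Its 5' end pairs with the 5' splice site of pre-mRNA at the first step of spliceosome assembly, and the same particle keeps transcripts from being cleaved early at internal polyadenylation signals. The U1b RNAs of the mouse are known as embryonic forms, which are abundant in early development and decline in most tissues as these mature, while U1a RNAs stay throughout life.

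The variant names matched 3 annotated mouse genes by symbol or synonym in the RefSeq gene table, Rnu1a1, Rnu1b1 and Rnu1b6. Their sequences show how little separates the reads counted under each name. They are printed 5′ to 3′ from the GENCODE M21 transcripts (build GRCm38). Rnu1a1 is 164 nt long, at chr11:87422867-87423030 on the plus strand, inside an intron of the protein-coding gene Tex14 on the same strand. Rnu1b1 is 165 nt, at chr3:96359953-96360117 on the minus strand, with no other gene across it. Rnu1b6 is 166 nt, at chr3:96460024-96460189 on the minus strand, and lies in an intron of Gm10685, a long non-coding RNA gene on the plus strand. Capitals in Rnu1a1 mark, in order, the letters ACTTACCTG that pair with a 5′ splice site, the letters ATTGCAC of the loop that the U1-A protein binds, and the letters AATTTGTGG of the Sm site. Capitals in Rnu1b1 and Rnu1b6 mark the bases that differ from Rnu1a1.
Rnu1a1: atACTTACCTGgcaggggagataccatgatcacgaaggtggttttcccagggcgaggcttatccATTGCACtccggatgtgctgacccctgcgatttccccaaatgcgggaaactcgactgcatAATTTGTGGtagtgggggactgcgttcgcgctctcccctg
Rnu1b1: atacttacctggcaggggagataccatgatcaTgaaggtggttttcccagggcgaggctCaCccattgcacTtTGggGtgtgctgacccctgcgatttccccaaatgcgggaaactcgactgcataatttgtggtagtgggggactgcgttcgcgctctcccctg
Rnu1b6: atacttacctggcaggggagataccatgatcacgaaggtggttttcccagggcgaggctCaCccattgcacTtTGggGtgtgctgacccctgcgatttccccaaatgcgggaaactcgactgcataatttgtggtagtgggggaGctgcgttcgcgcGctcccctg

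Most of the differences shared by the U1b forms sit around the U1-A loop. Counted from 1 at the 5′ end of Rnu1a1, both U1b genes carry T60C, T62C, C73T, C74G and A77G and 1 inserted base that the alignment placed after position 71. C33T was found in Rnu1b1 and not in Rnu1b6, while T156G and 1 inserted base after position 143 were found in Rnu1b6 and not in Rnu1b1. Rnu1a1 was 95.8% identical to Rnu1b1 and 95.2% to Rnu1b6, and the latter genes were 98.2% identical to each other. The letters ACTTACCTG started at position 3 in all of them, and were found in 48 of the 182 annotated snRNA transcripts of 150 to 180 nt (26.4%), searched on the transcript strand. ATTGCAC started at position 65 in each gene and was found in 61 of these transcripts (33.5%), while the longer ATTGCACTCC, which contains it, was found in Rnu1a1 but in neither U1b gene, and in 30 of the transcripts (16.5%). AATTTGTGG started at position 125 in Rnu1a1 and at 126 in the U1b genes, and 51 of the transcripts (28.0%) held it.

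The reads cannot be assigned to single genes. The annotation held 7 genes with exactly the sequence of Rnu1a1, itself included, 3 with that of Rnu1b6, and 2 with that of Rnu1b1, the other being Rnu1b2, which had no name of its own in the tables. In all, 41 annotated snRNA genes were at least 85% identical to 1 of these 4. Each value below therefore stands for a sequence variant as the authors' assignment named it, and reads may be exchanged between variants that differ at 3 positions, as Rnu1b1 and Rnu1b6 do.

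The libraries held 1067851 to 1160933 assigned reads in testis, and 3166394 and 1993087 in the spermatogonia. Levels are given as reads for every 1000000 reads of 5.8S rRNA in that library (RPM), since 5.8S rRNA carries a 5' monophosphate without any enzyme. There were 207996 to 536018 reads of 5.8S rRNA in the testis libraries, and 1236959 and 515608 in spermatogonia replicates 1 and 2, so that 3 reads, the least taken as present, corresponded to 2.43 to 14.4 RPM. With 1 library per testis treatment no difference has a replicate check, and the 95% intervals cover the counting error of reads only. Reads were not tagged by molecule, so PCR copies of 1 molecule count as separate reads in these intervals. In testis, a large part of the snRNA reads stood under names such as snRNA_small, snRNA_RNA and snRNA_nuclear, which identify no RNA. They took up 12233 of 16528 snRNA reads in the untreated library (74.0%), 165065 of 308374 in the TAP library (53.5%) and 9954 of 12720 in the 5Pase library (78.3%), and 0 in both spermatogonia libraries. These reads outnumbered the U1 reads 45.8, 50.5 and 30.8 times in turn. A testis U1 level is thus the level under names that identify U1, a lower limit if any of the other reads are U1.

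U1 reads were present in all 5 libraries and were most numerous in spermatogonia. The 3 variants summed to 267 reads in the untreated testis library, 3266 in the TAP library, 323 in the 5Pase library, and 85343 and 128427 in spermatogonia replicates 1 and 2. The corresponding levels were 845, 6093 and 1553 RPM in testis, and 68994 and 249079 RPM in spermatogonia. The spermatogonia libraries both lay above all testis libraries, and among the latter the TAP library was highest.

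U1a1, a form kept in adult tissues, supplied most of these reads. It had 257, 3192 and 310 reads in the untreated, TAP and 5Pase libraries, and 77384 and 117163 reads in spermatogonia. These reads gave 813, 5955 and 1490 RPM in testis and 144896 ± 116441 RPM in spermatogonia (SD, n = 2).

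U1b6, the more abundant of the embryonic-type forms, had 10, 74 and 13 reads in the same testis libraries and 7911 and 11204 in spermatogonia. Its level was 31.6 RPM untreated, 138 RPM with TAP, 62.5 RPM with 5Pase and 14063 ± 10843 RPM in spermatogonia (SD, n = 2). The order of the libraries was the same as for U1a1, but the testis values rested on few reads.

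U1b1 had 48 and 60 reads in spermatogonia, or 38.8 and 116 RPM, with a mean of 77.6 ± 54.8 RPM (SD, n = 2). It was at 0 reads in the testis libraries. Over the 3-read floors of the 5Pase, untreated and TAP libraries its level was 2.69, 4.09 and 6.93 times as high in replicate 1 and 8.07, 12.3 and 20.8 times as high in replicate 2. These folds hold for reads under the name U1b1 and are no lower limits, since testis reads under names that identify no RNA could add to it.

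**Figure D1:**
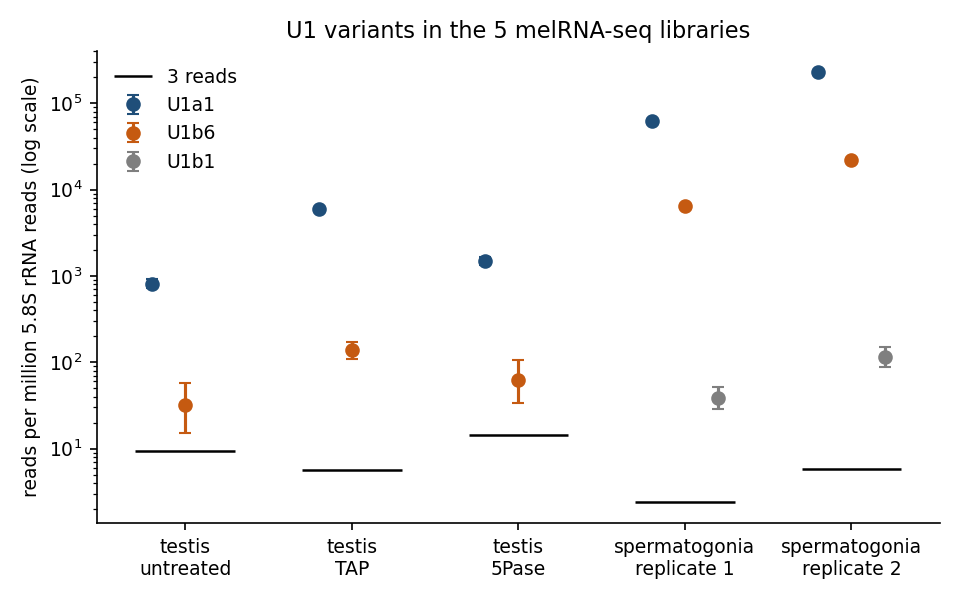
Level of each U1 variant in the 5 libraries, in RPM on a log axis, with 1 point per library and a black line at the level of 3 reads. U1a1 ran from 813 RPM in untreated testis to 227233 RPM in spermatogonia replicate 2, U1b6 lay below it in every library, and U1b1 had points only in spermatogonia, at 38.8 and 116 RPM.

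The comparison of the enzyme treatments asks which 5′ ends the testis RNAs carry. The U1 level was several times higher after TAP, which opens caps, than without enzyme, and the 5Pase level lay between them. For the 3 variants together the TAP level was 7.21 times the untreated level (95% interval 6.37–8.17) and 3.92 times the 5Pase level (3.50–4.40). The 5Pase level was 1.84 times the untreated level (1.56–2.16).

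U1a1 passed the minimum of 100 reads over the libraries compared in all of these comparisons, and was the only member of the 3 to do so within testis. Its TAP level was 7.33 times untreated (6.45–8.32), a place of 13th among 168 names, of which 19.0% were at least 2 times higher with TAP. The median name had a ratio of 0.280, and the ratio of U1a1 was 26.2 times this median. Against 5Pase the TAP level of U1a1 was 4.0 times as high (3.56–4.49), 7th among 174 names, of which 4.60% were at least 2 times higher with TAP. The names above it were U5, U7 and 4 that identify no RNA, namely snRNA_RNA, snRNA_musculus, snRNA_small and scRNA_embryo. With the snRNA names that identify no RNA left out, U1a1 was 4th among 169 names, of which 2.96% passed. The 5Pase level of U1a1 was 1.83 times untreated (1.55–2.16), under the 2-fold call that 29.4% of 163 names passed, and 1.15 times the median name's ratio of 1.59.

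U1b6, with 10, 74 and 13 reads, did not pass the minimum, and neither did U1b1. Its TAP level was 4.36 times untreated (2.25–8.45) and 2.21 times 5Pase (1.23–3.98), and its 5Pase level was 1.98 times untreated (0.866–4.51). These wide intervals overlapped those of U1a1 in every comparison.

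**Figure D2:**
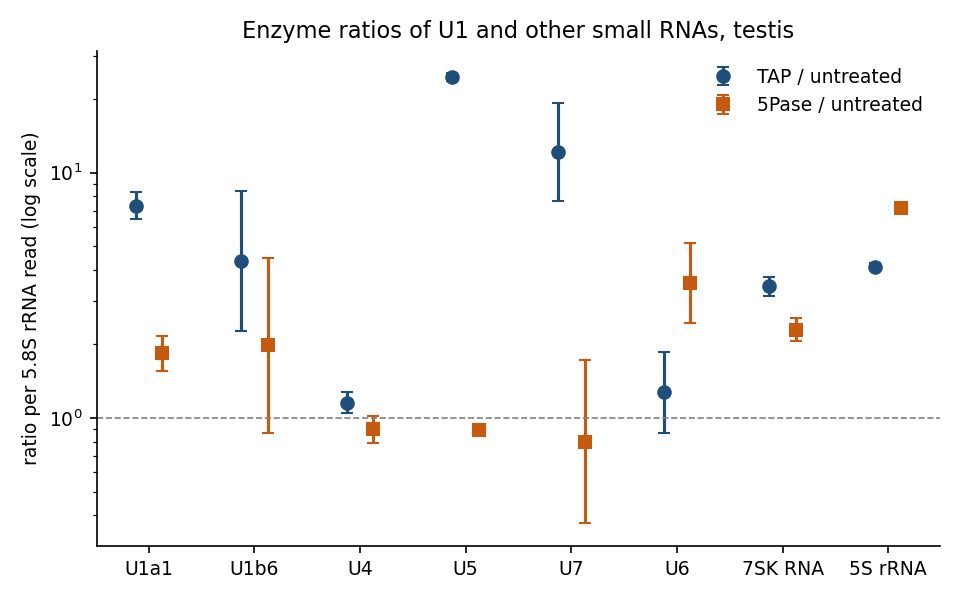
Ratio of the levels per 5.8S rRNA read between testis libraries, on a log axis, for U1a1, U1b6, the other named snRNAs, 7SK RNA and 5S rRNA, with circles for TAP over untreated, squares for 5Pase over untreated, 95% counting intervals as bars and a dashed line at 1. The TAP over untreated ratio was 7.33 for U1a1, between 24.6 for U5 and 1.15 for U4.

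The other snRNAs listed in testis differed in the same comparisons. U5, a component of the tri-snRNP with a trimethylated cap, was 24.6 times higher with TAP than untreated (23.7–25.4) and 0.896 times as high with 5Pase (0.847–0.948). U7, which acts in the 3′ end formation of histone mRNAs, was 12.1 times higher with TAP (7.64–19.2) and 0.80 times as high with 5Pase (0.372–1.72). U4, which is capped as well, was at 1.15 times untreated with TAP (1.05–1.27) and at 0.897 times with 5Pase (0.791–1.02). U6, made by RNA polymerase III with a methylated triphosphate end, was at 1.27 times untreated with TAP (0.869–1.86) and at 3.55 times with 5Pase (2.44–5.16). Of these 4, U5 and U7 passed the 2-fold call for TAP over untreated, and U6 passed that for 5Pase over untreated, where U7 had under 100 reads. The 5S rRNA, an RNA polymerase III product with a triphosphate end, was at 4.14 times untreated with TAP and 7.18 times with 5Pase, and 7SK RNA at 3.44 and 2.29 times. In its TAP ratio U1 lay between U5 or U7 and U4, with intervals apart from those of U4 and U5 but not from that of U7.

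**Figure D3:**
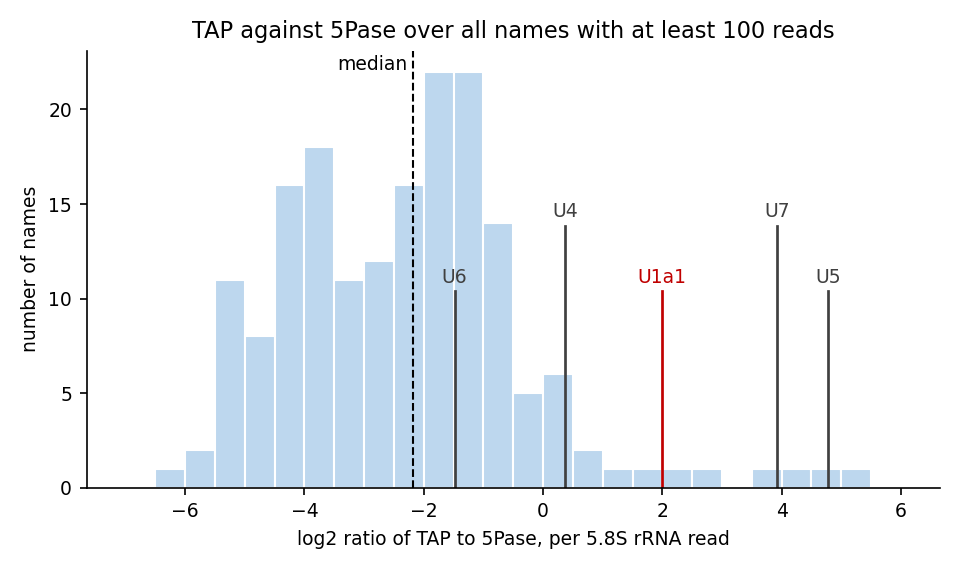
TAP over 5Pase ratio per 5.8S rRNA read as a histogram of the 174 names other than 5.8S rRNA that reached 100 reads in these libraries together, with log2 of the ratio on the horizontal axis and the number of names on the vertical axis. Vertical lines mark the snRNAs with a U number, and the dashed line the median name. U1a1 was 7th with a ratio of 4.0, to the left of U5 at 27.4 and U7 at 15.1, and the median name was at 0.221.

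The composition of the assigned reads moved with the enzyme. snoRNA names took 69.7% of assigned reads in the untreated library, 16.1% with TAP and 76.1% with 5Pase, and 5.8S rRNA took 27.2%, 50.2% and 19.2%. The ratios above depend on 5.8S rRNA as the common measure, and the part of these shifts in them was not tested beyond the other denominators tried. The reads under names that identify no RNA were 7.96 times higher with TAP than untreated (7.81–8.11) and 1.24 times higher with 5Pase (1.2–1.27) per 5.8S read.

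Shares of U1 reads compare the variants within a library, with no denominator outside U1. U1a1 held 96.3% of the U1 reads in untreated testis (Wilson 95% interval 93.2–98.0), 97.7% with TAP (97.2–98.2) and 96.0% with 5Pase (93.2–97.6). In spermatogonia it held 90.7% and 91.2%, with a mean of 91.0% ± 0.393 (SD, n = 2).

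U1b6 took a larger share in spermatogonia than in any testis library. Its share was 3.75% of U1 reads in untreated testis (2.05–6.76), 2.27% with TAP (1.81–2.83) and 4.02% with 5Pase (2.37–6.76). The share was 9.27% (9.08–9.47) and 8.72% (8.57–8.88) in spermatogonia replicates 1 and 2, a mean of 9.0% ± 0.386 (SD, n = 2). The testis intervals overlapped one another, and all lay below both spermatogonia intervals.

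**Figure D4:**
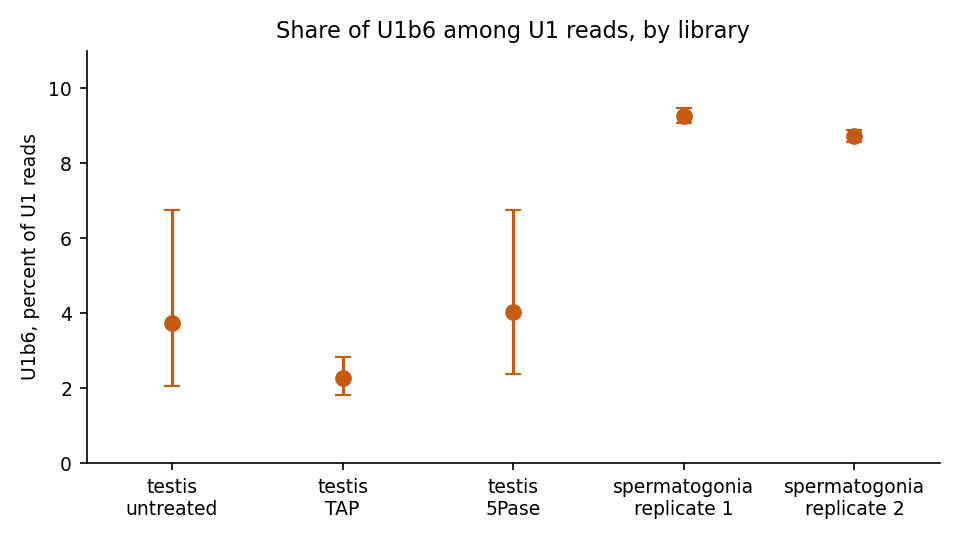
Share of U1 reads named U1b6 in each library, in percent on an axis from 0, with Wilson 95% intervals as bars. The testis libraries lay at 2.27% to 4.02% and the spermatogonia libraries at 9.27% and 8.72%.

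Expressed against U1a1, there were 2.32 U1b6 reads per 100 U1a1 reads in the TAP library (1.84–2.92), 3.89 in the untreated library (2.07–7.32) and 4.19 in the 5Pase library (2.41–7.30). The spermatogonia libraries held 10.2 (9.99–10.5) and 9.56 (9.38–9.75). Relative to TAP-treated testis the quotient was 4.41 times (3.50–5.56) and 4.12 times (3.27–5.20) as large in the spermatogonia replicates. Relative to 5Pase it was 2.44 times (1.40–4.25) and 2.28 times (1.31–3.97) as large, and relative to untreated testis 2.63 times (1.40–4.94) and 2.46 times (1.31–4.62). All of these intervals lay above 1. Between TAP and untreated testis the quotients had a ratio of 0.596 (0.304–1.17), and between TAP and 5Pase of 0.553 (0.303–1.01), which counting error does not separate from 1. The cell source, the enzyme, the kit and possibly the size selection differ together between the testis and spermatogonia libraries and cannot be told apart. The share also rests on which testis reads carry a U1 name: 242 further U1b6 reads in the TAP library, 0.147% of its reads under names that identify no RNA, would bring the testis share to the spermatogonia mean. In the untreated and 5Pase libraries 16 reads (0.131%) and 18 reads (0.181%) would do so. These counts add U1b6 reads only and assume no further U1a1 reads. Added U1 reads that divided between the variants like the named ones would leave the share unchanged.

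U1b1 made up 0.0562% of U1 reads in spermatogonia replicate 1 (0.0424–0.0746) and 0.0467% in replicate 2 (0.0363–0.0601), with a mean of 0.0515% ± 0.00673 (SD, n = 2). It came to 0.571 ± 0.0504 reads per 100 U1b6 reads, although the U1b forms differ at 3 positions. At the spermatogonia share the testis libraries would have held 0.137, 1.68 and 0.166 U1b1 reads. The floor of 3 reads corresponded to 1.12%, 0.0919% and 0.929% of U1 reads in the untreated, TAP and 5Pase libraries. For a count of 0, the upper Wilson limits of the share were 1.42%, 0.117% and 1.18% in turn. A U1b1 share like that of spermatogonia was therefore not detectable in testis at this depth.

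The spermatogonia libraries extend the comparison to germ cells sorted from the testis. Under names that identify U1, the summed level in spermatogonia was 11.3 times (10.9–11.7) that of TAP-treated testis in replicate 1 and 40.9 times (39.5–42.3) in replicate 2, with a mean of 26.1 ± 20.9 (SD, n = 2). U1a1 was 10.5 and 38.2 times higher, and U1b6 46.3 times (36.8–58.2) and 157 times (125–198) higher. Fewer cells of a type and less RNA per cell cannot be told apart in such bulk RNA. The enzyme, the kit and possibly the size selection differ here too, and cannot be told apart from the cell source. The direction depends on the reads without an identifying name: had all of them been U1, the TAP library would have held 314040 RPM, above both spermatogonia libraries. To bring the TAP library to the levels of replicates 1 and 2, 33717 and 130245 of these reads (20.4% and 78.9%) would have to be U1.

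U1a1, which reached the minimum of 100 reads in the TAP library alone, was at least 2 times higher in each spermatogonia library than in the TAP library, as were 59.4% of 313 names, counting those with 0 reads in the TAP library as higher. Its mean ratio was 5.17 times the median name's ratio of 4.70. Against the 5Pase library 38.9% of 314 names were at least 2 times higher in both replicates, and U1a1 had 310 reads there. U1b6, with 74 and 13 reads in the TAP and 5Pase libraries, reached the minimum only through the spermatogonia libraries, in which it was high, as did U1b1 with 0 reads in testis, so neither is counted or ranked. Restricted to names listed in both tissues, the shares were 57.2% of 271 names against TAP and 33.5% of 272 against 5Pase. Mean ratios to 5Pase were 97.2 ± 78.1 for U1a1 and 225 ± 173 for U1b6 (SD, n = 2). They were 1.39 ± 0.943 for U4, 32.8 ± 26.1 for U5, 35.0 ± 20.6 for U6 and 12.9 ± 10.8 for U7. 5Pase does not act on caps, so for capped RNAs these ratios cannot be read as differences between tissues. The TAP and 5Pase comparisons share the spermatogonia libraries and are not independent of each other. Of the other snRNAs, U6 had a mean ratio to TAP of 97.7 ± 57.6, while U4, U5 and U7 had mean ratios of 1.08 ± 0.732, 1.2 ± 0.951 and 0.853 ± 0.712 (SD, n = 2). Like U1b6, U6 reached the minimum only through the spermatogonia libraries, with 84 reads in the TAP library. These ratios, too, count only testis reads under names that identify an RNA.

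The spermatogonia replicates differed in their U1 level by more than counting error. Replicate 2 was 3.63 times replicate 1 for U1a1 (3.6–3.67), 3.40 times for U1b6 (3.30–3.50) and 3.0 times for U1b1 (2.05–4.38). All 3 members were at least 2 times higher in replicate 2, as were 25.8% of 275 names, whose median ratio was 1.55. U5 at 3.57 times, U2 at 3.61 times, U7 at 3.88 times, U4 at 2.85 times and U6 at 2.43 times differed in the same direction. The share of 5.8S rRNA in the assigned reads was 39.1% in replicate 1 and 25.9% in replicate 2, and the U1 ratio between the replicates was 2.39 per assigned read and 1.86 per sequenced read.

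Quotients within the snRNAs need no 5.8S rRNA, and against U5 the spermatogonia replicates lay close together. There were 0.510 U1 reads per U5 read in replicate 1 (0.506–0.515) and 0.517 in replicate 2 (0.513–0.520). Testis libraries held 0.0804 U1 reads per U5 read untreated (0.0710–0.0910), 0.0236 with TAP (0.0228–0.0244) and 0.165 with 5Pase (0.147–0.185). The spermatogonia quotients were 21.6 and 21.9 times the TAP quotient. The limit of the levels holds here too: in the TAP library 165065 snRNA reads stood under names that identify no RNA. Both spermatogonia libraries held 0 such reads. Depending on which RNAs those reads are, the testis quotients against each snRNA could be higher or lower, which was not tested. These quotients are set side by side across libraries, and are not read as molar ratios, since recovery may differ with the length and ends of an RNA.

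U2, which binds the branch point, was listed in spermatogonia only, with 1138 and 1137 U1 reads per U2 read, on 75 and 113 U2 reads. Whether testis reads under names that identify no RNA include U2 was not tested. The listed names differed the other way as well: 7SK RNA had 562, 3276 and 845 testis reads, and 0 under this name in spermatogonia. Against U4 there were 0.413, 2.58 and 0.846 U1 reads per read in the untreated, TAP and 5Pase libraries and 52.1 and 66.0 in spermatogonia. Against U6 the values were 6.85, 38.9 and 3.55 in testis and 7.73 and 11.5 in spermatogonia, so that the TAP library and not the spermatogonia libraries stood highest. Against U7 they were 14.1, 8.37 and 32.3 in testis and 271 and 252 in spermatogonia. Of all snRNA reads with a U number, U1 took 6.22% in untreated testis (5.53–6.98), 2.28% with TAP (2.20–2.36), 11.7% with 5Pase (10.5–12.9), and 32.5% ± 0.520 in spermatogonia (SD, n = 2). With the names that identify no RNA counted in the total, U1 took 1.62%, 1.06% and 2.54% in testis. The spermatogonia share was unchanged, since no such names were listed there. How many of those testis reads are U1 was not tested.

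**Figure D5:**
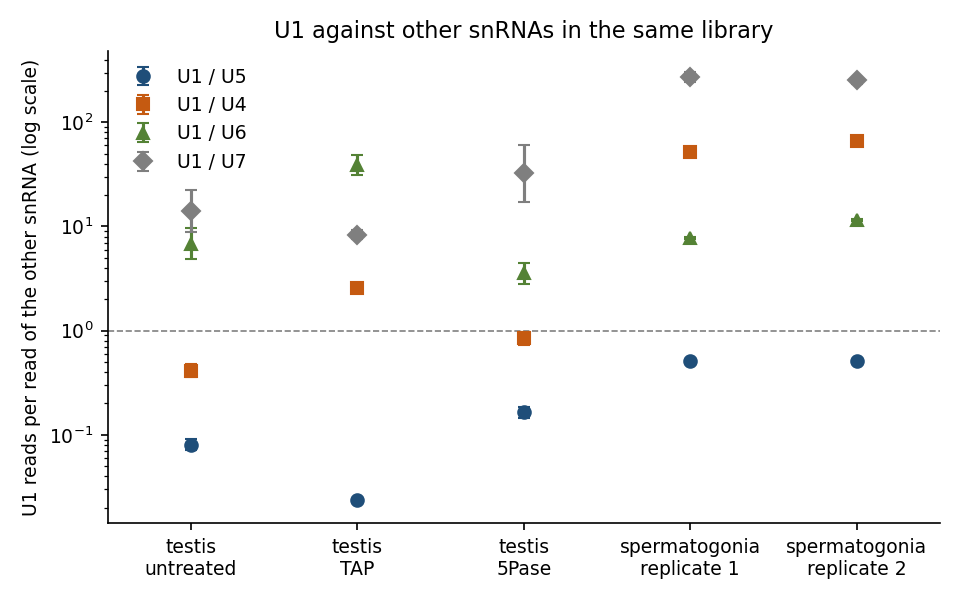
U1 reads per read of U4, U5, U6 and U7 in each library, on a log axis, with 95% counting intervals as bars. Per U5 read the spermatogonia libraries stood at 0.510 and 0.517 and the testis libraries at 0.0236 to 0.165, whereas per U6 read the TAP library stood highest, at 38.9.

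The names whose pattern over the 5 libraries was most like that of U1 were 2 tRNA copies and 3 short interspersed elements. Likeness was the root mean square difference of log2(RPM + 1), after each name was centred on its own mean, among 92 names with at least 100 reads in the TAP and both spermatogonia libraries. The nearest were tRNA_chrX.trna363-AlaTGC at 1.28, tRNA_chr4.trna1183-ValAAC at 1.32, B3 at 1.42, B1_Mus2 at 1.48 and B3A at 1.48. U5 stood 9th at 1.69 and U4 20th at 3.02. With a minimum of 20 reads, U6 entered as the nearest of 180 names, at 1.14, and 2 of the first 5 were kept.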

How the data were processed

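Per the labels, adaptors were trimmed with Cutadapt, and the study's methods name RepeatMasker for the assignment of reads to repeats and small RNAs; versions and the library of reference sequences are not given in the sources used here. The deposited values are raw read counts per name, with no normalization by the authors and no coordinates. In 2 libraries 1 line held a name and no count, and was left out. Members and lists were chosen with earlier results of these data known. The named genes were the U1 names, 5.8S and 5S rRNA, the other U-numbered snRNAs, snRNA names that identify no RNA, and the 5 names most like U1. Counts were divided by 5.8S rRNA reads. Ratio intervals used the log ratio with the summed reciprocal counts as variance, and share intervals Wilson's method, both at 95% (Python 3.11.15, numpy 2.4.6, scipy 1.17.1), and were tested on simulated data. A name other than 5.8S rRNA was called at a 2-fold difference with at least 100 reads in the libraries compared together. No significance test was run, since each testis treatment had 1 library. The labels repeat the testis protocol (600 ng, TruSeq) for spermatogonia, while the methods give 500 ng and NEBNext. Sequences were aligned with Biopython 1.88. Alternatives were other denominators, added reads, minimums and left-out replicates. 5S rRNA was not used as a denominator, since the enzymes act on it.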

Additional observations from a re-analysis of the deposited data

How the results depend on the processing

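The TAP over untreated ratio of U1, 7.21 per 5.8S rRNA read, was 13.3 per assigned read, 11.7 per sequenced read and 57.4 per snoRNA read, and 7.94 with the reads under names that identify no RNA added. The 5Pase over untreated ratio, 1.84, was 1.3, 1.41 and 1.19 per assigned, sequenced and snoRNA read, and 1.25 with those reads added. The TAP over 5Pase ratio, 3.92, was 10.2, 8.29 and 48.2, and 6.36 with those reads added. The mean spermatogonia over TAP ratio, 26.1, was 14.9 per assigned and 19.2 per sequenced read, 102 against the 5Pase library, and reversed to 0.506 with those reads added to testis; leaving out 1 replicate gave 11.3 (without replicate 2) and 40.9 (without replicate 1). The U1b6 per U1a1 quotient of spermatogonia over TAP, 4.27, a comparison chosen after seeing the data like its alternatives, was 2.36 against 5Pase and 2.54 against untreated testis, and 4.12 to 4.41 with 1 replicate left out. Without 1 replicate the spermatogonia shares were 90.7% to 91.2% for U1a1, 8.72% to 9.27% for U1b6 and 0.0467% to 0.0562% for U1b1. Names called with a minimum of 100, 20 and 10 reads numbered 32, 66 and 94 for TAP over untreated, 48, 94 and 129 for 5Pase over untreated, 8, 16 and 28 for TAP over 5Pase, 71, 114 and 136 between the spermatogonia replicates, 186, 280 and 324 for spermatogonia over TAP and 122, 204 and 239 for spermatogonia over 5Pase. Leaving out names that identify no RNA and, between tissues, names listed in 1 tissue only (chosen after seeing the data) moved 1 of these counts by over 1.5 times, from 8 to 5 for TAP over 5Pase. Of the 5 names most like U1, 4 were kept with a pseudocount of 10 RPM in place of 1. The cause of these shifts was not tested. The share without an unlettered U1 name was not run, since no such name was listed. No paired analysis was possible because the groups compared share fewer than 2 replicate numbers. Depth limits the testis values of U1b6, at 10 to 74 reads, and of U1b1.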

Other observations

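Among the testis snRNA names that identify no RNA, snRNA_small held the most reads, with 10580 in the untreated library, 140370 with TAP and 8586 with 5Pase. Its level per 5.8S rRNA read was 7.82 times untreated with TAP and 1.23 times untreated with 5Pase. snRNA_RNA held 598, 23235 and 245 reads, with ratios of 22.9 and 0.623, and snRNA_snRNA held 891, 188 and 761 reads. The corresponding ratios were 7.33 and 1.83 for U1a1, and 24.6 and 0.896 for U5. Which RNAs these names hold was not tested.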
